A study of Mus musculus with 4 samples.

Results

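TRAV6-1 to TRAV6-4 are V segments of the mouse TCRα locus, and TRAV6-3 and TRAV6-4 each have a further copy, TRAV6D-3 and TRAV6D-4, in a duplicated part of the locus. In the 4 TCRα clone tables, every clone was taken whose first listed V segment, without its allele, was TRAV6-1, TRAV6-2, TRAV6-3, TRAV6-4 or a D or N copy of one of these. The rule found 6 segments, 7697 of 189388 TCRα clones and 29043 of 871808 TCRα reads. In these tables each different sequence between the start of framework region 1 and the end of framework region 4 is its own clone, and 1 CDR3 joined to the same V and J can therefore appear in several clones. The tables list 97 TRAV segments in all.

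The libraries came from splenic CD4 T cells of 2 wild type (WT) mice and 2 Tet2/3 DKO mice with an average age of 25 days. WT mice were C57BL/6. Tet2/3 DKO mice were Tet2-/- Tet3 flx/flx CD4Cre, so that Tet2 is absent from all cells and Tet3 is deleted by a Cre recombinase driven by CD4 regulatory elements, which are active from the double positive stage of thymic development. In both genotypes, cells positive for CD25 or for the CD1d tetramer loaded with aGalCer had been removed by sorting. The tables hold TCR chains only, so neither the loss of Tet2 and Tet3 nor the markers of CD4 T cells could be checked in them. WT replicates 1 and 2 had 172506 and 216457 TCRα reads. Tet2/3 DKO replicates 1 and 2 had 195046 and 287799. The deepest library, Tet2/3 DKO replicate 2, also held the largest member chain, and several values that rest on that chain are also given without it. The preparation adds no molecular identifiers, reads are therefore PCR copies of fewer transcripts, and the intervals and limits given here cover counting error only. Exact permutation tests with 2 libraries per genotype cannot give a p-value below 0.333, and exact sign-flip tests over 4 libraries cannot give one below 0.125.

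A TCRα chain is made by joining a V segment to a J segment in developing thymocytes. The locus can rearrange repeatedly on one chromosome: each new join uses a V segment farther upstream and a J segment farther downstream, and deletes what lies between. The V segment encodes framework regions 1 to 3 and the CDR1 and CDR2 loops, which in most known complexes contact the MHC molecule, while the CDR3 spans the V-J join and mainly contacts the peptide.

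The 6 segments lie on chromosome 14 in 2 groups, in the GRCm38.p6 gene table of RefSeq, the assembly also known as mm10. The group farther upstream holds TRAV6-1 at chr14:52638515-52638962, TRAV6-2 at chr14:52667411-52667864, TRAV6D-3 at chr14:52725308-52726919 and TRAV6D-4 at chr14:52753398-52753846, between 1518 and 1403 kb from Traj58, the first J segment of the table. TRAV6-3 at chr14:53428761-53430377 and TRAV6-4 at chr14:53454327-53454784 lie nearer to the J segments, at 727 and 702 kb.

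Over the 267 bases from the start of framework region 1 to the end of the V part compared here, the most abundant intact sequences of TRAV6-3 and TRAV6D-3 were identical, and those of TRAV6-4 and TRAV6D-4 differed at 7 positions. TRAV6-3 and TRAV6-4, which are neighbours on the chromosome, differed at 33 of the 267 positions. The whole V part of TRAV6-3 is shown because clones lacking pieces of it are described further on. Capitals mark bases 1 to 87 and bases 105 to 228, the pieces that were missing in some clones, and positions are counted from 1 at the start of framework region 1.
TRAV6-3 V part: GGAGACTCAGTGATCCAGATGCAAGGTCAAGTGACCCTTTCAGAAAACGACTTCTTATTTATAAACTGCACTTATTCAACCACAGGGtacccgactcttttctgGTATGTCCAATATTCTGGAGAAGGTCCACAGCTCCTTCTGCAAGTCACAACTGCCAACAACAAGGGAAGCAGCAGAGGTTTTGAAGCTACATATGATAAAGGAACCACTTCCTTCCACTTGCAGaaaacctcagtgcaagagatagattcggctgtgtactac

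The CDR1 (bases 79 to 96) is shown for each segment because it differs between the segments that lost the first piece and those that did not. Capitals mark an AG at bases 84 and 85.
TRAV6-1 CDR1: accacatggtacccgact
TRAV6-2 CDR1: accacAGggtacccgact
TRAV6D-3 CDR1: accacAGggtacccgact
TRAV6-3 CDR1: accacAGggtacccgact
TRAV6D-4 CDR1: accacaacgtacccaact
TRAV6-4 CDR1: accacaacatacccaact

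TRAV6-3 and TRAV6D-3 differed only after these bases, in the end of the V segment that lies inside the CDR3. In the deposited clones the most frequent first bases of the CDR3, with the base that differs between the copies in capitals, were those below.
TRAV6-3 start of CDR3: tgtgctatgagA
TRAV6D-3 start of CDR3: tgtgctatgagT
Clones with the same best score for both copies were listed under TRAV6-3. Such ties held 40.6% and 43.1% of the reads listed under TRAV6-3 in WT, against 37.8% and 19.9% in Tet2/3 DKO, in replicate order. In Tet2/3 DKO replicate 2, 871 of 4368 reads were tied. Without its most read chain, which was not tied, 2363 of the 4368 reads were left. Counted as clones, 209 of 492 and 252 of 571 were tied in WT, against 205 of 550 and 232 of 595 in Tet2/3 DKO. Of the clones listed under TRAV6D-3, 0 were tied. TRAV6-3 therefore stands for TRAV6-3 and an unknown part of TRAV6D-3 in all values that follow.

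Together, the 6 segments held 3.19% and 3.24% of TCRα reads in WT. In Tet2/3 DKO they held 3.24% and 3.55%, in replicate order here and throughout. The genotypes overlapped, with means of 3.21% ± 0.0326 (SD, n = 2) and 3.39% ± 0.224 (SD, n = 2) and an exact two-sided permutation p of 0.667. When each clone was counted once, the order turned: they held 4.34% and 4.22% of clones in the WT mice and 4.10% and 3.69% in the Tet2/3 DKO mice (exact permutation p = 0.333, the smallest this design allows).

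As listed, TRAV6-3 was the most used of the 6, with 1.03% and 0.925% of TCRα reads in WT, against 0.954% and 1.52% in Tet2/3 DKO. Tet2/3 DKO replicate 2 stood above the other 3 libraries. Without the most read chain of the segment in each library, the shares became 0.967% and 0.890% in the WT mice and 0.930% and 0.821% in the Tet2/3 DKO mice.

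TRAV6-2 held 0.581% and 0.748% of reads in WT, against 0.659% and 0.550% in Tet2/3 DKO. TRAV6-4 held 0.523% and 0.508% in the WT mice and 0.630% and 0.352% in the Tet2/3 DKO mice, so the knockout libraries lay on either side of the WT libraries. TRAV6-1, the segment farthest upstream, held 0.464% and 0.411% in WT, against 0.431% and 0.601% in Tet2/3 DKO. Genotypes overlapped for these 3 segments.

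As listed, the D copies were used least, but the tied clones listed under TRAV6-3, which could belong to TRAV6D-3, held 0.420% and 0.399% of reads in WT, against 0.360% and 0.303% in Tet2/3 DKO, more than TRAV6D-3 itself in each library. The place of TRAV6D-3 in the order is therefore not settled. TRAV6D-3 held 0.332% and 0.307% of reads in the WT mice and 0.286% and 0.245% in the Tet2/3 DKO mice, and TRAV6D-4 held 0.255% and 0.337% in WT, against 0.275% and 0.285% in Tet2/3 DKO. In the order of mean read share over the 4 libraries, TRAV6-3 (1.11% ± 0.277, SD, n = 4) lay above TRAV6-2 (0.635% ± 0.0886) with no overlap of libraries. This order rests on the ties: untied TRAV6-3 clones held 0.615% and 0.527% of reads in the WT mice and 0.593% and 1.22% in the Tet2/3 DKO mice, which overlaps with TRAV6-2. The libraries of TRAV6-2, TRAV6-4 (0.503% ± 0.114) and TRAV6-1 (0.477% ± 0.0858) overlapped with those of their neighbours in this order, and all lay above those of TRAV6D-3 (0.293% ± 0.0367) and TRAV6D-4 (0.288% ± 0.0351), which overlapped with each other.

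**Figure D1:**
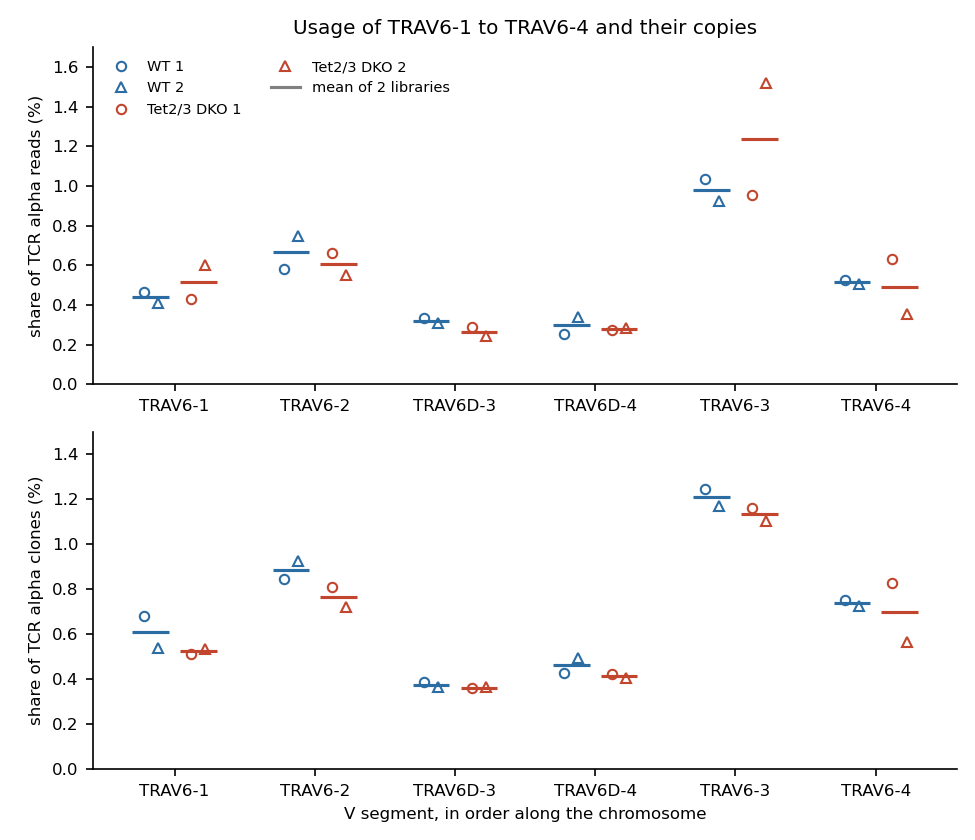
Share of TCRα reads (upper panel, %) and of TCRα clones (lower panel, %) held by each segment, in chromosome order. Each symbol is 1 library and each line the mean of the 2 libraries of a genotype. TRAV6-3 in Tet2/3 DKO replicate 2 reaches 1.52% of reads but 1.11% of clones.

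In the test of usage with edgeR (quasi-likelihood, Benjamini-Hochberg adjustment over all 97 TRAV segments), 0 of the 6 segments passed an adjusted p of 0.05, and neither did any other TRAV segment (percent of segments called: 0). At an unadjusted p under 0.05, 0 of the 6 and 3.09% of all segments were counted, and DESeq2 also called 0 segments after adjustment. Without Tet2/3 DKO replicate 1, edgeR called 8 segments, 0 of them among the 6. The median log2 fold change of Tet2/3 DKO over WT was -0.08 over the 6 segments and -0.01 over all 97. TRAV6-3 had the largest positive value, a log2 fold change of 0.34 ± 0.22 (SE, edgeR adjusted p = 0.975), and TRAV6D-3 the largest negative value, -0.27 ± 0.26 (SE, edgeR adjusted p = 0.975). With each clone counted once these became -0.091 and -0.046, and without the most read chains -0.079 and -0.13.

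By share of clones, both Tet2/3 DKO libraries lay below both WT libraries for 5 of the 6 segments, all except TRAV6-4, an order found for 19.7% of the 76 TRAV segments with at least 100 reads in every library. The opposite order was found for 0 of the 6 and for 9.21% of the 76. By share of reads, the Tet2/3 DKO libraries were both lower for 1 of the 6, TRAV6D-3, against 14.5% of the 76. By share of clones the distance was small for several of the 5. TRAV6D-3 held 0.385% and 0.365% of clones in WT against 0.362% and 0.364% in Tet2/3 DKO. TRAV6-2 held 0.846% and 0.926% in WT against 0.808% and 0.721% in Tet2/3 DKO. For TRAV6-3 the order held for its tied clones, with 0.530% and 0.517% in WT against 0.433% and 0.431% in Tet2/3 DKO. Its untied clones overlapped, with 0.717% and 0.654% in WT against 0.730% and 0.674% in Tet2/3 DKO.

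J segments are numbered from high to low along the chromosome, with Traj58 nearest to the V segments and Traj2 nearest to the constant region, so the mean TRAJ number of a set of clones describes how far downstream its J segments lie. With each clone counted once, the mean was 25.7 and 25.6 in the WT mice and 25.5 and 24.6 in the Tet2/3 DKO mice for the 6 segments together. For all other TRAV segments it was 29.3 and 29.2 in WT, against 29.1 and 28.6 in Tet2/3 DKO. Weighted by reads, the 6 segments gave 25.4 and 25.4 in the WT mice and 25.3 and 24.0 in the Tet2/3 DKO mice.

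Each of the 6 segments had a lower read-weighted mean TRAJ number than the other TRAV segments in 4 of 4 libraries. The difference ranged from -2.37 ± 1.57 (SD over the 4 libraries) for TRAV6D-4 to -5.16 ± 1.18 for TRAV6D-3. Every one of these comparisons had an exact sign-flip p of 0.125, the smallest possible over 4 libraries, and an adjusted p of 0.173 over the 18 comparisons of 6 segments and 3 measures. Against TRAV6-5, TRAV6-6, TRAV6-7 and their copies, which held 17.4% ± 1.54 (SD, n = 4) of TCRα reads, the 6 were again lower in 4 of 4 libraries, by 2.71 to 5.49 on average.

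The 6 segments were not at the end of the range of single TRAV segments. Among the 76 segments with at least 100 reads in every library, ordered from the lowest mean TRAJ number with each clone counted once, they held places 24 (TRAV6D-3), 27 (TRAV6-1), 35 (TRAV6-2), 36 (TRAV6-3), 37 (TRAV6-4) and 42 (TRAV6D-4). Their median was 25.4, and the median over the 76 segments was 25.8. The single segments of the TRAV6-5 to TRAV6-7 group lay on both sides of the 6. Below all 6 were TRAV6N-5 (22.1), TRAV6N-6 (22.7) and TRAV6D-7 (24.2). Above all 6 were TRAV6D-5 (28.0), TRAV6-5 (28.6), TRAV6-6 (29.9) and TRAV6-7-DV9 (42.2).

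**Figure D2:**
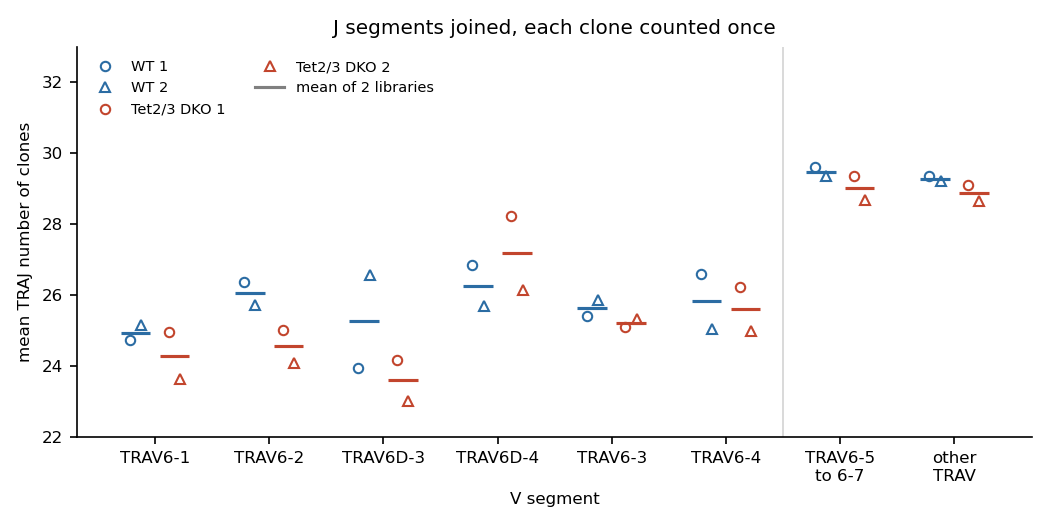
Mean TRAJ number of the clones of each segment, of TRAV6-5 to TRAV6-7 with their copies, and of all TRAV segments outside TRAV6-1 to TRAV6-4, with each clone counted once. Symbols are libraries and lines are means of 2 libraries. The axis starts at 22, not at 0. All libraries of the 6 segments lie below the 28.6 of the lowest library of the other TRAV segments.

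The largest gap was at the V side of the J array. J segments from TRAJ48 upwards, nearest to the V segments, were joined in 4.15% and 3.84% of the clones of the 6 segments in WT, against 3.72% and 3.37% in Tet2/3 DKO. In the other TRAV segments they were joined in 12.3% and 12.3% of clones in WT, against 12.2% and 11.7% in Tet2/3 DKO. TRAJ2 to TRAJ13, nearest to the constant region, made up 19.9% ± 1.38 (SD, n = 4) of the clones of the 6 segments and 15.7% ± 0.524 in the other TRAV segments. TRAJ15 to TRAJ24 made up 30.1% ± 0.286 against 24.5% ± 0.720, and TRAJ37 to TRAJ47 made up 16.7% ± 1.11 against 19.4% ± 0.522. The stretch between these, TRAJ26 to TRAJ35, was closer, with 29.5% ± 1.09 against 28.3% ± 0.436.

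Within the 6, TRAV6-1 had the fewest joins to TRAJ48 and above, 1.02% ± 0.420 of clones (SD, n = 4), and TRAV6D-4 the most, 7.60% ± 2.27. TRAV6D-3 had the most joins to TRAJ2 to TRAJ13, with 27.0% and 23.0% of clones in the WT mice and 31.6% and 33.7% in the Tet2/3 DKO mice. TRAV6-4 had the fewest of these, 15.4% ± 1.68. TRAV6-3 lay between them at 19.6% ± 1.14. Its tied clones, which could belong to either copy, had 17.3% ± 2.52 and its untied clones 21.2% ± 0.517. The part of the assignment of tied clones in the difference between TRAV6-3 and TRAV6D-3 was not tested.

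**Figure D3:**
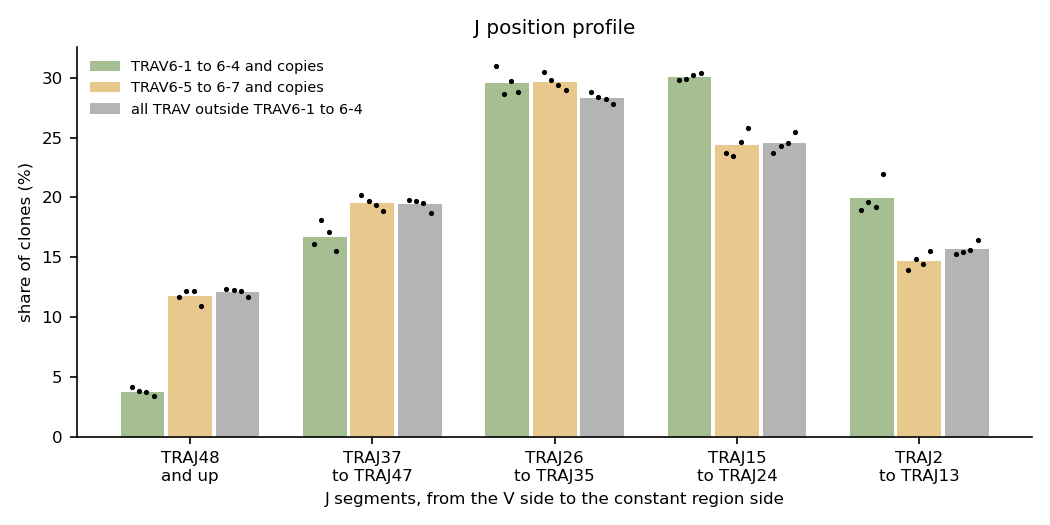
Share of clones (%) that joined J segments of 5 consecutive stretches of the J array, for TRAV6-1 to TRAV6-4 with their copies, TRAV6-5 to TRAV6-7 with their copies, and all TRAV segments outside TRAV6-1 to TRAV6-4. Bars are means of 4 libraries and dots single libraries in the order WT 1, WT 2, Tet2/3 DKO 1 and Tet2/3 DKO 2. The bar of TRAV6-1 to TRAV6-4 is the lowest for TRAJ48 and above and the highest for TRAJ2 to TRAJ24.

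TRAJ31 was among the 3 J segments with the largest mean read share for every one of the 6 segments. In TRAV6-4 it took 7.31% and 10.6% of reads in WT, against 11.8% and 9.27% in Tet2/3 DKO, and in TRAV6-1 it took 7.49% and 7.30% in the WT mice and 7.37% and 6.30% in the Tet2/3 DKO mice. TRAJ22 was among the first 3 for TRAV6D-4, TRAV6-3 and TRAV6-4. By mean read share, TRAV6D-3 had TRAJ9 (10.6% and 2.71% in WT, 6.09% and 8.07% in Tet2/3 DKO) and TRAJ12 (6.28% and 4.82% in WT, 11.5% and 2.97% in Tet2/3 DKO) ahead of TRAJ31. The latter took 5.76% and 7.98% of TRAV6D-3 reads in WT, against 5.02% and 5.81% in Tet2/3 DKO. By mean read share, only in TRAV6-4 did TRAJ31 come first. By share of clones, TRAJ31 lay above the J segment leading by reads in every library for TRAV6-1, TRAV6-2 and TRAV6-3. In TRAV6-1 it made up 7.98% to 9.33% of clones, against 1.90% to 5.21% for TRAJ18. In TRAV6-2 it made up 6.44% to 8.38%, against 4.19% to 6.42% for TRAJ34. In TRAV6D-3 (TRAJ9) and TRAV6D-4 (TRAJ17) the order by clones differed between libraries.

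Some leading J segments had a much higher share in 1 library. TRAJ23 took 6.83% and 5.84% of TRAV6-3 reads in WT and 5.97% in Tet2/3 DKO replicate 1, but 49.1% in Tet2/3 DKO replicate 2. TRAJ18 took 3.62% and 1.12% of TRAV6-1 reads in WT and 3.92% in Tet2/3 DKO replicate 1, but 33.6% in Tet2/3 DKO replicate 2. TRAJ34 took 15.2% of TRAV6-2 reads and TRAJ17 took 16.8% of TRAV6D-4 reads in the same library, against 4.04% to 7.65% and 1.64% to 5.41% in the others. By share of clones, TRAJ23 made up 8.24% of TRAV6-3 clones in that library and 5.43% to 6.30% in the other 3.

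The mean TRAJ number of the 6 segments together did not separate the genotypes beyond the limit of the design. Both Tet2/3 DKO libraries lay below both WT libraries, weighted by reads (mean difference of Tet2/3 DKO minus WT -0.73, exact permutation p = 0.333) and with each clone counted once (-0.59, p = 0.333 by the same exact test). Without the most read chain of each segment and library the genotypes overlapped (-0.26, exact permutation p = 1.00), and without Tet2/3 DKO replicate 2 the difference was -0.082. Among clones with a CDR3 out of frame or with a stop codon, the order was the opposite, with 25.7 and 24.7 in WT, against 26.6 and 26.7 in Tet2/3 DKO (difference 1.44, exact permutation p = 0.333). Of the single segments, TRAV6-2 and TRAV6-3 had a lower mean in both Tet2/3 DKO libraries than in both WT libraries with each clone counted once, 2 of 6, and 32.9% of the 76 TRAV segments showed that order.

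Of 3035 V-J pairs of all TRAV segments with at least 10 reads in total, 224 belonged to the 6 segments. In edgeR with adjustment over all 3035 pairs, 0 of the 224 passed, and the percent of all pairs called was 0. At an unadjusted p under 0.05, 10 of the 224 and 143 of all pairs (4.71%) were counted. DESeq2 called 11 pairs, among them 1 of the 224, TRAV6-1 with TRAJ18. The median log2 fold change was -0.17 over the 224 pairs and -0.05 over all pairs. In simulated counts only 21.4% of pairs changed 4-fold were recovered by the edgeR test, against 95% of segments in the test of usage, so changes of single pairs of that size would mostly be missed.

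The 3 member pairs with the largest fold changes among the 114 with at least 10 reads in every library were these. TRAV6-1 with TRAJ18 had 29 and 10 reads in the WT mice and 33 and 581 in the Tet2/3 DKO mice, in 10, 5, 7 and 15 clones (log2 fold change 3.37 ± 1.02 (SE), edgeR adjusted p = 0.995). TRAV6-3 with TRAJ23 had 122 and 117 reads in WT, against 111 and 2146 in Tet2/3 DKO, in 31, 31, 34 and 49 clones (2.69 ± 0.86, edgeR adjusted p = 0.995). Both rises were in Tet2/3 DKO replicate 2 alone, and without the most read chain of each segment and library the value of TRAV6-3 with TRAJ23 turned to -0.23, while that of TRAV6-1 with TRAJ18 was 2.46. Without Tet2/3 DKO replicate 2 the values were -0.13 and 0.67, and with each clone counted once 0.21 and 0.34. TRAV6-3 with TRAJ28 had 62 and 114 reads in the WT mice and 11 and 26 in the Tet2/3 DKO mice, in 10, 13, 4 and 7 clones (-2.57 ± 0.62, edgeR adjusted p = 0.995), and 75 of the 114 reads were of 1 clone. Its value was -1.82 without the most read chains and -1.24 with each clone counted once. Without Tet2/3 DKO replicate 1, which leaves 1 library in that genotype, edgeR called 18 pairs, TRAV6-1 with TRAJ18 (adjusted p = 0.0259) and TRAV6-3 with TRAJ23 (adjusted p = 0.00067) among them.

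The most read chain of the 6 segments was a TRAV6-3 chain joined to TRAJ23 in Tet2/3 DKO replicate 2, and it is shown with the most read chains of the other V-J pairs of that library named above, because they weigh on those J values. A chain here is 1 sequence of CDR3 and framework region 4 with its V and J segments, TRAV6-3 and TRAV6D-3 being taken as 1, and its reads include those that lack a piece of V. For clones without a CDR3 in the tables that lacked a piece of V, the bases after the end of the 267-base V part were read from the clone's own sequence and had to be identical to the CDR3 and framework region 4 of the chain.
TRAV6-3 TRAJ23 CDR3: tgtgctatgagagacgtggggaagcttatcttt
TRAV6-1 TRAJ18 first CDR3: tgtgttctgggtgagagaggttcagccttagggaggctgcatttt
TRAV6-1 TRAJ18 second CDR3: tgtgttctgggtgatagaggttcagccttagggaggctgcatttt
TRAV6-2 TRAJ34 CDR3: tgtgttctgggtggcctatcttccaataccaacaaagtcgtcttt
TRAV6D-4 TRAJ17 CDR3: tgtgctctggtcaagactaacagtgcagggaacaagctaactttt
The TRAV6-3 chain had 2005 reads, 0.697% of the library, and a CDR3 of 11 amino acids. The TRAV6-1 chains had 297 and 216 reads, and both encode a CDR3 of 15 amino acids with TRAJ18. The TRAV6-2 chain had 155 reads and the TRAV6D-4 chain 88. In the other 3 libraries the most read chains of the 6 segments were smaller, the largest having 117 reads (TRAV6-3 with TRAJ38 in WT replicate 1), 81 reads (TRAV6D-3 with TRAJ16 in WT replicate 2) and 86 reads (TRAV6-2 with TRAJ18 in Tet2/3 DKO replicate 1).

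The CDR3 of in-frame clones had a mean length of 13.6 and 13.6 amino acids in WT, against 13.7 and 13.7 in Tet2/3 DKO, with each clone counted once. The other TRAV segments had 13.4 and 13.4 in the WT mice and 13.4 and 13.5 in the Tet2/3 DKO mice. Weighted by reads, the values were 13.6 and 13.6 in WT, 13.7 in Tet2/3 DKO replicate 1 and 13.2 in Tet2/3 DKO replicate 2, the lowest. The last became 13.7 when the 10 most abundant TCRα clones of each library were left out. The difference between genotypes was -0.16 amino acids with reads as weights (exact permutation p = 1.00) and 0.078 with each clone counted once (exact permutation p = 0.333).

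TRAV6-1, TRAV6-2, TRAV6D-3 and TRAV6D-4 had a longer read-weighted CDR3 than the other TRAV segments in 4 of 4 libraries, by 0.177 (TRAV6D-4) to 0.402 (TRAV6-2) amino acids on average (exact sign-flip p = 0.125, adjusted p = 0.173). TRAV6-3 was longer in 3 libraries and shorter in Tet2/3 DKO replicate 2, where its mean was 12.4 amino acids with the TRAJ23 chain and 13.8 without it. TRAV6-4 was longer in 2 libraries and shorter in 2. Against TRAV6-5 to TRAV6-7 and their copies, TRAV6-2 alone of the 6 was longer in 4 of 4 libraries, by 0.12 amino acids on average. There the mean difference was 0.041 for TRAV6-1 (shorter in 3 of 4), 0.076 for TRAV6D-3 (longer in 3 of 4) and -0.10 for TRAV6D-4 (shorter in 3 of 4), and TRAV6-4 was shorter in 4 of 4 (-0.28). As listed, and with each clone counted once, TRAV6-4 had the shortest mean of the 6, 13.5 ± 0.0262 (SD, n = 4). TRAV6D-3 had the longest, 13.8 ± 0.0682, but all clones listed under it were untied. The untied clones of TRAV6-3 had a longer mean, 13.975 ± 0.1376, and lay above TRAV6D-3 in each library. The tied clones of TRAV6-3 had 13.335 ± 0.1398, below TRAV6-4. The part of the ties in the CDR3 length of TRAV6D-3 was not tested.

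With each clone counted once, 4 of the 6 segments (TRAV6-1, TRAV6-2, TRAV6-3 and TRAV6D-3) had a longer mean CDR3 in both Tet2/3 DKO libraries than in both WT libraries. That order was found for 48% of 75 TRAV segments. TRAV6-4 showed the opposite order, found for 4% of them, with 13.478 and 13.477 amino acids in WT, against 13.46 and 13.42 in Tet2/3 DKO. For TRAV6-3 the longer mean in Tet2/3 DKO held for its tied clones, 13.326 and 13.147 in WT against 13.476 and 13.393 in Tet2/3 DKO. Its untied clones overlapped, with 13.902 and 13.925 in WT against 14.18 and 13.892 in Tet2/3 DKO.

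A CDR3 was taken as in frame when its translation held neither a frameshift nor a stop codon. Of member reads, 85.8% and 85.9% in the WT mice and 86.1% and 87.5% in the Tet2/3 DKO mice were in frame. The genotypes did not overlap, by 0.94 percentage points on average (exact permutation p = 0.333), but with each clone counted once the shares were 83.9% and 85.3% in WT, against 85.7% and 83.5% in Tet2/3 DKO, with no difference in the means (-0.0032 percentage points, exact permutation p = 1.00).

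The segments differed more from each other than the genotypes did. Of the clones with a CDR3, TRAV6-4 had 92.3% and 91.5% in frame in the WT mice and 94.9% and 93.1% in the Tet2/3 DKO mice. TRAV6D-4, its copy, had 91.1% and 92.8% in WT, against 94.5% and 91.2% in Tet2/3 DKO. All other members were below both of them in every library. TRAV6-1 had the lowest shares, with 75.9% and 83.5% in the WT mice and 76.9% and 80.4% in the Tet2/3 DKO mice.

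TRAV6-2 (87.9% ± 1.99, SD, n = 4), TRAV6-3 (86.2% ± 0.652) and TRAV6D-3 (85.8% ± 3.13) overlapped with each other and lay near the other TRAV segments (86.0% ± 0.271). Among 75 TRAV segments ordered from the highest share, TRAV6-4 was number 9, TRAV6D-4 number 13 and TRAV6-1 number 54. As shares of all reads, TRAV6-4 exceeded the other TRAV segments in 4 of 4 libraries by 6.52 ± 1.90 percentage points and TRAV6D-4 by 4.34 ± 1.33, while TRAV6-1 was lower in 4 of 4 by 5.87 ± 2.98 (exact sign-flip p = 0.125 and adjusted p = 0.173 for each). Against TRAV6-5 to TRAV6-7 and their copies, TRAV6-4 and TRAV6D-4 were again higher in 4 of 4 libraries, by 12.3 ± 2.56 and 10.2 ± 2.12 percentage points, whereas the mean difference of TRAV6-1 was -0.051 ± 2.01, lower in 3 libraries and higher in 1. Counted as a share of all clones, 1 of 6 segments, TRAV6-4, was higher in both Tet2/3 DKO libraries (94.9% and 92.8%) than in both WT libraries (92.3% and 91.2%), an order found for 23.7% of 76 TRAV segments. TRAV6-2 showed the opposite order, found for 13.2% of them, with 86.8% and 87.2% in WT, against 86.6% and 82.0% in Tet2/3 DKO.

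**Figure D4:**
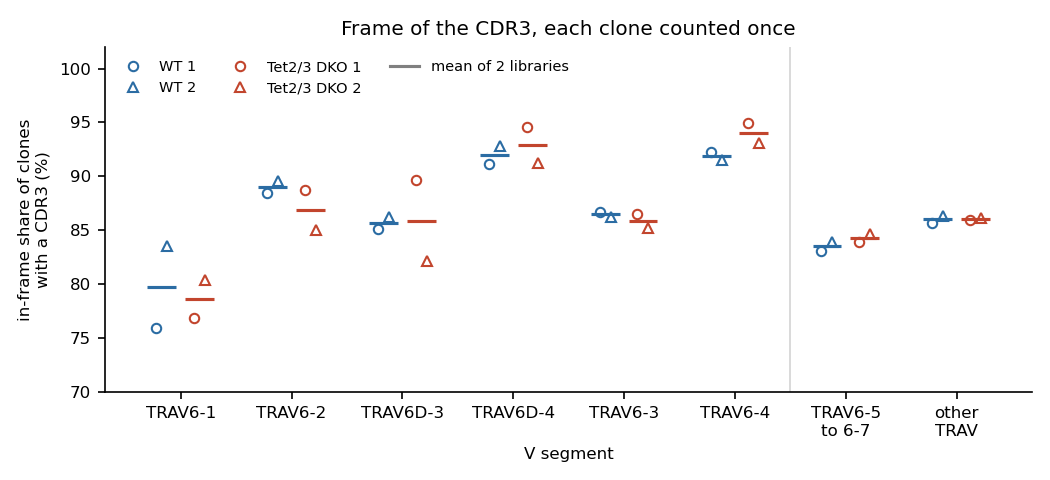
In-frame share (%) of the clones with a CDR3, each clone counted once, for each segment, for TRAV6-5 to TRAV6-7 with their copies, and for all TRAV segments outside TRAV6-1 to TRAV6-4. Symbols are libraries and lines means of 2 libraries, and the axis starts at 70, not at 0. TRAV6-4 and TRAV6D-4 lie between 91.1% and 94.9%, and TRAV6-1 between 75.9% and 83.5%.

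For 248 member clones with 1024 reads the tables gave no CDR3. They made up 3.22% and 3.64% of member reads in the WT mice and 3.57% and 3.59% in the Tet2/3 DKO mice, with overlapping genotypes (exact permutation p = 1.00). The other TRAV segments had 3.45% and 3.14% in WT, against 2.81% and 1.95% in Tet2/3 DKO. Among these, TRAV6-5 to TRAV6-7 and their copies had 9.04% and 7.96% in WT, against 7.27% and 5.06% in Tet2/3 DKO. Of these 1024 member reads, 920 (89.8%) lacked the same 124 bases of V, from base 105 to base 228, which begin with GT and end with AG, as introns do. A further 8 reads lacked another stretch, and 96 had no missing stretch of V. In the other TRAV segments, 69.15% of the 22768 reads without a CDR3 lacked a piece of V.

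The clones lacking bases 105 to 228 kept framework region 1, the CDR1 and the start of framework region 2 and went on within framework region 3. Since 124 is not a multiple of 3, the frame after the gap changes. TRAV6-3 had 565 such reads in 132 clones, TRAV6-2 181 reads in 37 clones, TRAV6D-3 159 reads in 43 clones and TRAV6-1 15 reads in 3 clones. TRAV6-4 and TRAV6D-4 had 0 of 4245 and 0 of 2526 reads, which allows a share of up to 0.0707% and 0.119%.

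As a share of each segment's reads, the loss of bases 105 to 228 came to 5.99% and 5.69% in the WT mice and 6.34% and 5.17% in the Tet2/3 DKO mice for TRAV6-3. For TRAV6D-3 it came to 5.41% and 5.72% in WT, against 10.2% and 4.67% in Tet2/3 DKO. For TRAV6-2 it came to 1.40% and 3.40% in the WT mice and 3.27% and 4.42% in the Tet2/3 DKO mice. Genotypes overlapped in all 3.

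All 6 segments held GT at bases 105 and 106 and AG at bases 227 and 228, also the 2 without such reads. The bases around these positions are shown for TRAV6-3 and TRAV6-2, which had the loss, and for the 2 segments without it, with the GT or AG in capitals.
TRAV6-3 bases 95 to 116: ctcttttctgGTatgtccaata
TRAV6-2 bases 95 to 116: ctcttttctgGTatgtccaata
TRAV6D-4 bases 95 to 116: ctcttttctgGTatgtccaata
TRAV6-4 bases 95 to 116: ctcttttgtgGTatgtccaata
TRAV6-3 bases 213 to 240: ttccttccacttgcAGaaaacctcagtg
TRAV6-2 bases 213 to 240: gtccttccacttgcAGaaagcctcagtg
TRAV6D-4 bases 213 to 240: ctccttccacttacAGaaagcctcagtg
TRAV6-4 bases 213 to 240: gtccttccacttgcAGaaagcctcagtg
Around the GT, TRAV6D-4 was identical to TRAV6-3 and TRAV6-2, and around the AG, TRAV6-4 was identical to TRAV6-2 and TRAV6-1. Neither window alone separated the segments with the loss from those without it.

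The other frequent loss removed the start of the V part. In TRAV6-3 and TRAV6D-3 the deposited sequence began after base 87, inside the CDR1, and in TRAV6-2 after base 85. The tables begin at framework region 1, so how far the missing stretch extends upstream of it is not known. TRAV6-3 had 1007 such reads in 176 clones, TRAV6D-3 132 reads in 32 clones and TRAV6-2 70 reads in 23 clones. These 3 segments are the ones with AG at bases 84 and 85, as shown with their CDR1 sequences. TRAV6-1 had 1 such read of 4263, and TRAV6-4 and TRAV6D-4 had 0.

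Unlike the loss of bases 105 to 228, the loss of the start left the CDR3 readable, and 148 of the 176 TRAV6-3 clones with it had a CDR3 in frame. It made up 6.67% and 7.34% of TRAV6-3 reads in WT, against 6.02% and 14.4% in Tet2/3 DKO. Without the most read chain of each library, Tet2/3 DKO replicate 2 still had the highest share, 11.6%, against 6.17% to 7.63% in the other 3 libraries. In TRAV6D-3 it made up 4.54% and 4.07% of reads in the WT mice and 4.84% and 7.37% in the Tet2/3 DKO mice, and in TRAV6-2 1.80% and 0.247% in WT, against 0.544% and 2.59% in Tet2/3 DKO.

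**Figure D5:**
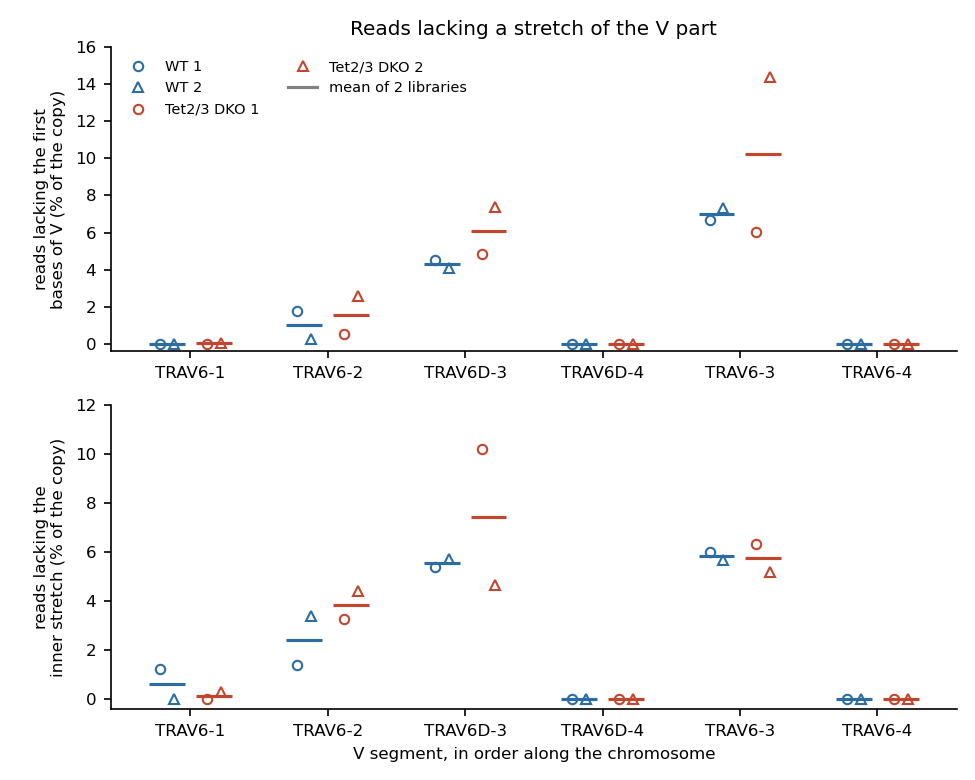
Share of each segment's reads (%) that lacked the start of the V part (upper panel, bases 1 to 87, or 1 to 85 in TRAV6-2) or the inner stretch (lower panel, bases 105 to 228). Symbols are libraries and lines means of 2 libraries. TRAV6-4 and TRAV6D-4 are at 0 in both panels, and TRAV6-3 in Tet2/3 DKO replicate 2 reaches 14.4% in the upper one.

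Counting every missing stretch, 5.90% and 5.61% of member reads in the WT mice and 5.77% and 10.3% in the Tet2/3 DKO mice lacked a piece of V (difference of means 2.30 percentage points, exact permutation p = 0.667). Without Tet2/3 DKO replicate 2 the means differed by 0.011 percentage points. Without the most read chain of each segment and library the shares were 5.96% and 5.69% in WT, against 5.98% and 7.85% in Tet2/3 DKO, which did not overlap (difference 1.09, exact permutation p = 0.333). Per clone, the values were 5.49% and 5.25% in WT, against 5.26% and 7.44% in Tet2/3 DKO. The other TRAV segments had 4.20% and 3.97% of reads in the WT mice and 3.64% and 2.65% in the Tet2/3 DKO mice. Among these, TRAV6-5 to TRAV6-7 and their copies had 8.76% and 7.64% in WT, against 7.03% and 4.94% in Tet2/3 DKO. Within that group, by mean over the 4 libraries, TRAV6-6 had 16.55% and was number 7 of 76 TRAV segments. Its other segments among the 76 had 0.0929% to 3.64%. TRAV6-3 (14.5% ± 3.43, SD, n = 4) and TRAV6D-3 (11.7% ± 2.46) were numbers 9 and 10 of 76 TRAV segments by this share, TRAV6-2 (4.41% ± 1.75) was number 19 and TRAV6-1 (0.511% ± 0.528) was number 42.

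TRAV6D-3 was the 1 of 6 segments in which both Tet2/3 DKO libraries had more clones with a missing stretch than both WT libraries, 12.3% and 10.7% against 10.5% and 9.55%, and 3.95% of the 76 TRAV segments showed that order. The opposite order was found for 0 of the 6 and for 28.9% of the 76.

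The same chain could be read with V intact and with either loss. Of the 2005 reads of the TRAV6-3 chain with TRAJ23, 1561 were intact, 356 lacked the start of V (17.8%, 95% Wilson interval 16.1% to 19.5%) and 88 lacked bases 105 to 228 (4.39%, 3.58% to 5.38%). A TRAV6-3 chain with TRAJ9 in the same library had 27 of 184 reads without the start (14.7%, 10.3% to 20.5%) and 0 without the inner stretch. The other chains of TRAV6-3 or TRAV6D-3 with at least 50 reads in a library differed in the loss of the start. It was found in 13 of 58 reads of a TRAJ21 chain in Tet2/3 DKO replicate 2 (22.4%, 13.6% to 34.7%), in 7 of 81 reads of the TRAJ16 chain in WT replicate 2 (8.64%, 4.25% to 16.8%) and in 4 of 54 reads of a TRAJ22 chain in WT replicate 1 (7.41%, 2.92% to 17.6%). It was found in 0 of 117 reads of the TRAJ38 chain of WT replicate 1 (upper limit of the interval 3.18%) and in 0 of 77 reads of the TRAJ28 chain of WT replicate 2 (4.75%). The inner stretch was missing in 14 of the 58 reads of the TRAJ21 chain (24.1%, 14.96% to 36.5%), in 5 of the 54 of the TRAJ22 chain (9.26%, 4.02% to 19.9%), in 3 of the 117 of the TRAJ38 chain (2.56%, 0.876% to 7.27%) and in 0 reads of the TRAJ16 and TRAJ28 chains. The 2 large TRAV6-1 chains with TRAJ18, with 297 and 216 reads, had 0 reads with either loss.

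Among clones lacking the start of V, 12.5% to 31.3% had an intact clone with the same V and J segments and identical bases after the V part in their own library, and 5.0% to 13.8% had one in a given other library on average. Among clones lacking bases 105 to 228 the values were 6.56% to 27.5% in the own library and 2.19% to 9.80% in another one. In each library and for each loss, the share was higher in the own library.

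Of 4697 in-frame chains of the 6 segments, counted by V segment, J segment and CDR3 amino acids, 31 were found in all 4 libraries, or 0.66%. Of 93248 such chains of the other TRAV segments, 2300 (2.47%) were found in all 4, and of 15112 chains of TRAV6-5 to TRAV6-7 and their copies, 435 (2.88%). The number of reads per clone was lower in the 6 segments in every library, 3.22 and 3.40 in WT, against 3.26 and 5.14 in Tet2/3 DKO, against 4.41, 4.48, 4.17 and 5.36 in the other TRAV segments, and its part in the lower sharing was not tested. TRAV6-3 had 16 of the 31 chains, TRAV6-2 had 9, TRAV6-1 and TRAV6-4 had 3 each, and TRAV6D-3 and TRAV6D-4 had 0.

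Among the shared chains with the largest share in their lowest library, 4 are shown by their most read CDR3 sequence.
TRAV6-3 TRAJ23: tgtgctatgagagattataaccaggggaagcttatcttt
TRAV6-3 TRAJ22: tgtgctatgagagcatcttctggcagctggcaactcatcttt
TRAV6-3 TRAJ15: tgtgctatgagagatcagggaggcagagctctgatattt
TRAV6-2 TRAJ30: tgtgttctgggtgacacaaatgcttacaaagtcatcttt
The first, with a CDR3 of 13 amino acids, had 40 and 15 reads in the WT mice and 11 and 32 in the Tet2/3 DKO mice. It uses TRAJ23 like the large chain of Tet2/3 DKO replicate 2 but has another, longer CDR3. The TRAJ22 chain had 25 and 16 reads in WT, against 10 and 20 in Tet2/3 DKO. The TRAJ15 chain had 11 and 11 reads in WT, against 6 and 9 in Tet2/3 DKO, and the TRAV6-2 chain 5 and 13 in the WT mice and 19 and 16 in the Tet2/3 DKO mice. These 4 were written by 2 to 4 different nucleotide sequences over the 4 libraries, and none took more than 0.0232% of a library.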

How the data were processed

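TCR SMART-seq libraries of splenic CD4 T cells were prepared by the authors with a 5' RACE kit, trimmed with fastp 0.21.0 and assembled with MiXCR. The authors deposited, for each TCRα clone, its count of reads and its fraction of the reads of the chain. The deposited fraction equalled the share of the counts and served as a check only. The first listed V and J segments were used without alleles, and TCRβ tables were not used. Clones without a CDR3 stayed in denominators unless stated.

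Single values per library were compared by exact two-sided permutation over the 6 assignments of the genotype labels, and segments with the other TRAV segments of the same library by exact sign-flip tests. Counts per TRAV segment and per V-J pair with at least 10 reads in total were tested over all TRAV segments in edgeR 4.0.16 (quasi-likelihood), taking all TCRα reads of the library as library size. Adjusted p-values (Benjamini-Hochberg) under 0.05 were called. As an alternative, DESeq2 1.42.0 was run. On simulated counts, the edgeR test recovered 95% of 4-fold changes over 97 segments and 21.4% over 3035 pairs. Each library is 1 mouse. A missing stretch of V was called against the most abundant intact sequence of the segment, with at least 20 missing bases and 20 matching bases after the gap. In a test on 500 simulated gaps, the caller found 100% and marked 0% of intact sequences. The simulated sequences held no errors and came from the member segments only. The test therefore does not cover clones with sequence errors or the other TRAV segments. Python with pandas 2.3.3 and scipy 1.17.1 was used.

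The segments, lists and tests were chosen with earlier results of these data known. All 6 segments are named, with the 3 J segments of largest mean share and the most read chains, the 3 V-J pairs with the largest fold change, the 5 shared chains with the largest smallest share (1 of them is not reported here), and the missing stretches found in all 4 libraries. Of the most read clones per segment and library, those that set a value in the text are described. The further chains of TRAV6-3 and TRAV6D-3 with at least 50 reads were added after their values were seen. Alternatives covered the weight of a clone, the minimum of 2 reads, tied V assignments, merged D and N copies, large clones, normalization, the test, filters, a replicate block and each library left out. Leaving out the most read chain of each segment and library was chosen after seeing the data.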

Additional observations from a re-analysis of the deposited data

How the results depend on the processing

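Values are Tet2/3 DKO minus WT unless stated, and with 2 libraries per genotype no exact test of a single value can pass a threshold of 0.05. With each clone counted once, the sign turned for the share of TCRα of the 6 segments (-0.38 percentage points), the mean CDR3 length (0.078), the in-frame share (-0.0032) and the share without a CDR3 (-0.17). Without the 10 most abundant clones of each library it turned for the share of TCRα (-0.052) and the CDR3 length (0.068). Without the most read chain of each segment and library it turned for the share of TCRα (-0.20), the CDR3 length (0.12) and the in-frame share (-0.25). With out-of-frame clones only, the mean TRAJ number turned to 1.44. Leaving out each library in turn gave 0.021 to 0.34 for the share of TCRα, -1.38 to -0.082 for the mean TRAJ number, -0.41 to 0.092 for the CDR3 length, 0.23 to 1.66 for the in-frame share, -0.062 to 0.36 for the share without a CDR3 and 0.011 to 4.59 for the share lacking a piece of V.

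Usage of TRAV segments gave 0 calls in edgeR, and 0 to 8 with each library left out in turn, the 8 without Tet2/3 DKO replicate 1. None of these was a member. The V-J test gave 0 calls in edgeR, 11 in DESeq2 and 0 to 18 with each library left out, 18 without Tet2/3 DKO replicate 1, which included TRAV6-1 with TRAJ18 (log2 fold change 4.26, edgeR adjusted p = 0.0259) and TRAV6-3 with TRAJ23 (3.58, edgeR adjusted p = 0.00067). In these fits 1 library stands alone for its genotype, and its spread is taken from the other. With the replicate block, edgeR called 0 segments and 0 pairs. The replicate numbers did not pair the libraries: over 93 TRAV segments, the deviations of replicate 1 from the genotype means correlated with r = -0.039. With each library left out in turn, the log2 fold change lay between -0.021 (without Tet2/3 DKO replicate 2) and 0.46 for TRAV6-1, between -0.31 and 0.058 (without WT replicate 2) for TRAV6-2, between -0.039 (without Tet2/3 DKO replicate 2) and 0.63 for TRAV6-3, between -0.55 and 0.29 (without Tet2/3 DKO replicate 2) for TRAV6-4, between -0.38 and -0.16 (without Tet2/3 DKO replicate 2) for TRAV6D-3 and between -0.27 and 0.13 (without WT replicate 2) for TRAV6D-4. With each clone counted once it turned to -0.21 for TRAV6-1 and -0.091 for TRAV6-3 (TRAV6D-3 -0.046), and without the most read chains to -0.079 for TRAV6-3. TRAV6-3 with TRAJ23 turned to -0.23 without the most read chains, and to -0.13 without Tet2/3 DKO replicate 2, the lowest of a range up to 3.58. TRAV6-1 with TRAJ18 ranged from 0.67 (without Tet2/3 DKO replicate 2) to 4.55.

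Of the 18 comparisons with the other TRAV segments, 13 had 1 direction in all libraries, 11 to 16 under the alternatives that keep all libraries, and 13 to 15 with each library left out. The mean TRAJ number of each segment stayed lower in each of these. The in-frame difference of TRAV6-2 turned to 2.38 percentage points with each clone counted once, to 5.42 against TRAV6-5 to TRAV6-7 and to 0.98 without Tet2/3 DKO replicate 2, in a range from -1.45 with libraries left out. Against TRAV6-5 to TRAV6-7 it turned to 2.58 for TRAV6-3 and 2.02 for TRAV6D-3, and the CDR3 difference to -0.23 for TRAV6-3 and -0.10 for TRAV6D-4. For TRAV6-3, leaving out libraries gave CDR3 differences from -0.11 to 0.42 amino acids. For TRAV6-4, leaving out libraries gave -0.047 to 0.048, and the value was 0.056 with each clone counted once and 0.0012 without the most read chains. The cause of these shifts was not tested. Depth limits the V-J pairs and the D copies, since TRAV6D-4 had as few as 440 reads in a library.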
